A study of Mus musculus with 6 samples.

Results

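The BCL2 family of apoptosis regulators was followed in mouse acute myeloid leukaemia. The 10 members sought by gene symbol were Bcl2, Bcl2l1, Mcl1, Bcl2l11, Pmaip1, Bbc3, Bax, Bak1, Bid and Bmf, and 9 of them had a row with exactly 1 symbol among 30142 measured genes. Bax was not analysed here. Expression was measured in leukaemia cells on 3 control arrays and 3 Dnmt3b-KO arrays. All 6 samples were leukaemia induced by MLL-AF9, a fusion oncogene that drives myeloid leukaemia, grown in recipient mice and sorted from their bone marrow at the end stage of disease. The control group came from littermate controls, and the Dnmt3b-KO group lacked Dnmt3b, the gene of an enzyme that adds methyl groups to unmethylated CpG sites. The deleted exons, the way of deletion, the markers of the sort and the age of the mice are not given in the sources used.

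BCL2 family proteins decide whether the outer membrane of the mitochondrion stays closed or is opened, the committed step of intrinsic apoptosis. Guardians such as BCL2, BCL-XL and MCL1 bind and hold the effectors BAX and BAK, which form the pores. BH3-only proteins, made or activated under stress, occupy the groove of the guardians or engage the effectors directly. Myeloid leukaemia cells are known to lean on BCL2 and MCL1 for survival, and both proteins are drug targets in this disease.

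One array stood apart from the rest. Across genes, Dnmt3b-KO replicate 3 correlated with the other 5 arrays at 0.981 to 0.982, whereas those 5 correlated with each other at 0.998 to 0.999. Of the macrophage markers, 11 of 12 were measured and 7 of these were higher by more than 1 log2 unit on that array than on the mean of Dnmt3b-KO replicates 1 and 2. The summed log2 level of the macrophage list was 66.6 to 67.5 on the control arrays, 66.4 to 68.0 on the first and second Dnmt3b-KO arrays, and 107.7 on replicate 3. Vsig4 and C1qa stayed below the median gene on every array. The 8 measured leukaemia and myeloid progenitor markers lay above the median gene on every array. Their summed level was 98.6 to 99.7 in control, 101.5 to 101.7 on the first and second Dnmt3b-KO arrays and 97.3 on replicate 3, where 3 of them, Kit, Meis1 and Csf3r, were lower by more than 1 than on those arrays and 1, Itgam, was higher by more than 1. By contrast, the 7 measured T and NK cell markers lay below the median gene on every array. On all 3 controls 1 of 6 B and plasma cell markers, 2 of 4 erythroid markers and 2 of 8 stromal and endothelial markers were above the median gene. The comparison is therefore given over all 6 arrays and without Dnmt3b-KO replicate 3, whose own value is shown apart. The targeted gene, Dnmt3b, differed by -0.44 ± 0.17 (SE) over 6 arrays (limma, adjusted p = 0.781) and by -0.24 ± 0.07 without that array (adjusted p = 0.159). Neither passed. Its groups did not overlap, as was so for 14.9% of all genes over 6 arrays and 32.5% without that array. The part that each array row covers relative to the deletion is also unknown, so this is a weak check of the labels.

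Of the 9 members, Bcl2 and Pmaip1 changed when Dnmt3b-KO replicate 3 was set aside. Bcl2, a guardian, fell by 0.95 ± 0.11 log2 units (SE), and Pmaip1, which encodes the BH3-only protein NOXA, rose by 0.60 ± 0.06. The other 7 did not pass the threshold of an adjusted p under 0.05. Over all genes the same comparison called 1.69% (509 of 30142), 0.939% higher and 0.75% lower. With 1 more array left out the 509 became 43, 262 and 97 genes without control replicates 1, 2 and 3, and 13 and 30 without Dnmt3b-KO replicates 1 and 2. Over all 6 arrays limma called 0 of the 9 members and 0% of all genes. At an unadjusted p under 0.05 there were 3 members and 1920 genes (6.37%) over 6 arrays, and 4 members and 4665 genes (15.5%) without that array. The median difference over the 9 members was 0.20 over 6 arrays and -0.01 without that array, against -0.004 and -0.01 over all genes. The summed level of the 4 measured erythroid markers moved with this comparison. It was 20.6 to 22.0 in control, 18.8 to 19.5 on Dnmt3b-KO replicates 1 and 2 and 18.7 on replicate 3. Alas2 and Slc4a1 were lower on all 3 Dnmt3b-KO arrays than on every control. Control replicate 3 was the lowest control for both, at 6.67 and 5.33. Klf1 and Epor were below the median gene on every array. The groups overlapped for Klf1, and Epor measured 4.32, 4.33 and 4.36 in control and 4.28, 4.24 and 4.31 in Dnmt3b-KO. The leukaemia and progenitor list moved the other way on replicates 1 and 2, as given above, and the part of either list in the values of Bcl2 and Pmaip1 was not tested. Whether each array stands for its own mouse is not stated, and the p-values then cover only the spread among these 6 samples, which can be technical.

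**Figure D1:**
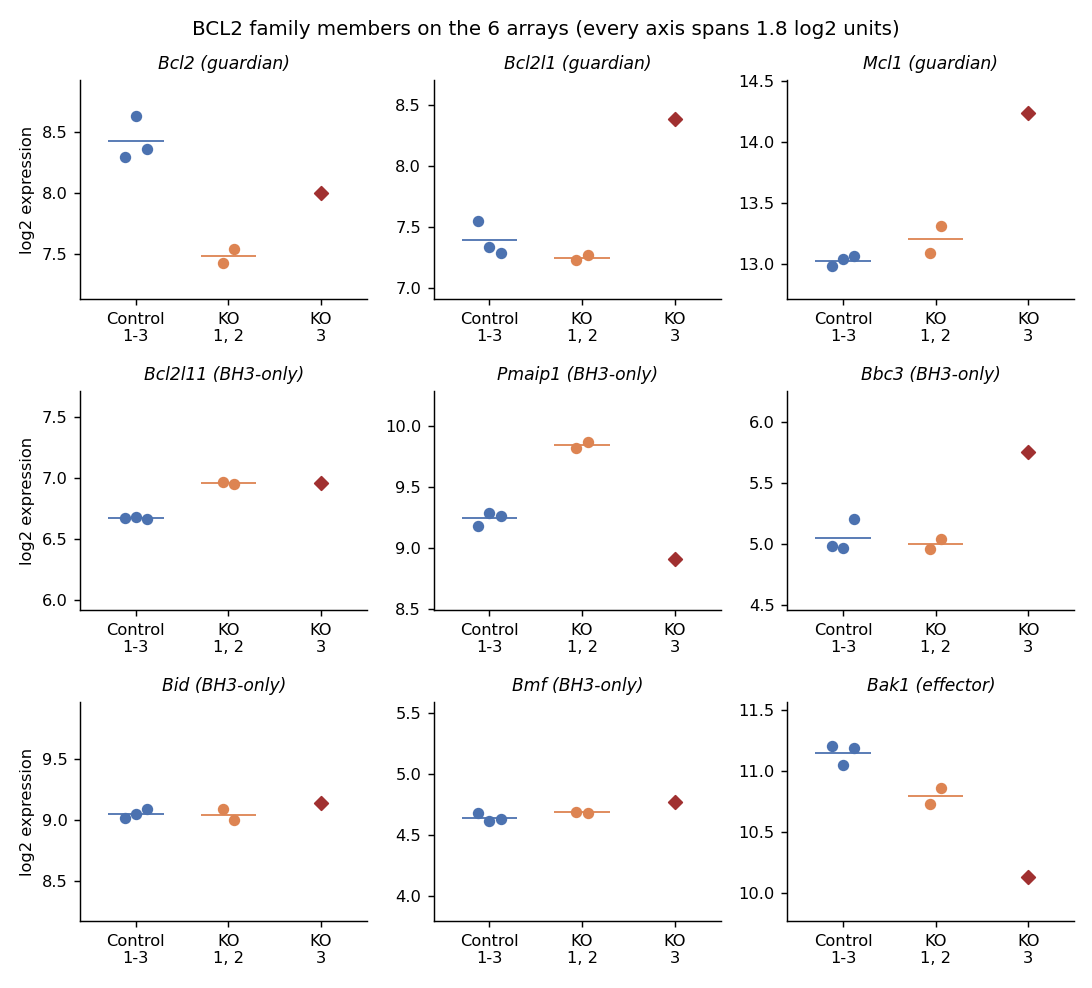
Log2 expression of the 9 measured BCL2 family members, 1 panel per gene, with 1 point per array. Shown are 3 control arrays, Dnmt3b-KO replicates 1 and 2, and replicate 3 as a diamond. Lines mark the mean of the controls and the mean of Dnmt3b-KO replicates 1 and 2. Every vertical axis spans the same number of log2 units. Bcl2 and Bak1 are lower and Bcl2l11 higher on all 3 Dnmt3b-KO arrays, whereas Pmaip1 is high at 9.82 and 9.87 on replicates 1 and 2 and low at 8.91 on replicate 3.

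Among the guardians, Bcl2 moved most on replicates 1 and 2. Bcl2 lies on chromosome 1 and encodes the founding member of the family, a membrane protein of mitochondria and the endoplasmic reticulum. Its log2 values were 8.30, 8.63 and 8.36 on control replicates 1, 2 and 3, and 7.43, 7.54 and 8.0 on Dnmt3b-KO replicates 1, 2 and 3. All 3 Dnmt3b-KO arrays lay below all controls, and replicate 3 lay between the controls and the other Dnmt3b-KO arrays. Over 6 arrays the difference was -0.77 ± 0.17 (SE; 95% confidence interval -1.20 to -0.35), which did not pass (limma, adjusted p = 0.60). Without Dnmt3b-KO replicate 3 it was -0.95, with an interval of -1.20 to -0.69, and passed (adjusted p = 0.021). The call ended when 1 more array was left out, at an adjusted p of 0.0764 without control replicate 1, 0.0648 without control replicate 3, 0.171 without Dnmt3b-KO replicate 1 and 0.113 without replicate 2. It held without control replicate 2 (0.0282), and the difference stayed between -1.01 and -0.85 throughout. In bulk samples, fewer cells of a type and less RNA per cell cannot be told apart.

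CpG is the site that DNMT3B methylates, and the sequences upstream of Bcl2 and Bcl2l11, a guardian and a BH3-only gene whose groups did not overlap on the 6 arrays, are shown for their CpG content. Methylation was not measured here, so a CpG count is only a feature of the reference sequence. Each line gives the 250 bases before the annotated start from RefSeq (GRCm38.p6), 5′ to 3′ along the gene, with every CG in capitals. The Bcl2 window is chr1:106714291-106714540, minus strand, and the Bcl2l11 window, the more upstream of its starts, is chr2:128125788-128126037, plus strand.
Bcl2: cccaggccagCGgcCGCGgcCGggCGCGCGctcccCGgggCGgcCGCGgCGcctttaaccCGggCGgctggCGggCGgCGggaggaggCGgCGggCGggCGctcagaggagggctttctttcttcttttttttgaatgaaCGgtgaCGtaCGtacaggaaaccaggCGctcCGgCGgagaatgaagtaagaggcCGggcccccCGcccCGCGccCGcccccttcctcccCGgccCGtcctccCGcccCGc
Bcl2l11: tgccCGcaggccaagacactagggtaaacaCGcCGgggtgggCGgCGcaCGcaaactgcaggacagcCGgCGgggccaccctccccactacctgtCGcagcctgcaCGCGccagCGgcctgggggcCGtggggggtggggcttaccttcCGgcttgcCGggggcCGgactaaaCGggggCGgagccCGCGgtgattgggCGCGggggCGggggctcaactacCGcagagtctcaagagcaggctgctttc
The Bcl2 window holds 36 CG, a number reached by 2.6% of 32851 such windows, and the Bcl2l11 window holds 24, reached by 12%. The second Bcl2l11 window holds 30, reached by 5.9%. Of the other members whose groups did not overlap on the 6 arrays, Mcl1 holds 26, reached by 9.6%, and Bak1 holds 8, reached by 43.0%. The motif CG reads the same on both strands, and the median window of all genes holds 6. For 8 of the measured members 15 windows were counted, with 0 to 37 CG and a median of 18. Of these windows 12 were above the median of all windows. No window of Pmaip1 was counted here, so nothing is said of its CpG content. The members whose expression did not pass include both extremes, as the 3 starts of Bbc3 hold 27, 23 and 37 CG and a Bcl2l1 start holds 0.

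Bcl2l1 encodes BCL-XL, the guardian known for keeping maturing erythroid cells and platelets alive. It measured 7.55, 7.34 and 7.29 in control, and 7.23, 7.27 and 8.39 on Dnmt3b-KO replicates 1, 2 and 3. Replicates 1 and 2 lay just below the controls and replicate 3 lay 0.99 above the control mean. The difference was 0.23 ± 0.33 over 6 arrays (SE; 95% interval -0.57 to 1.04; adjusted p = 0.877) and -0.15 ± 0.09 without replicate 3 (-0.36 to 0.07; adjusted p = 0.526), so that its sign turned with that array.

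Mcl1 encodes a short-lived guardian that blood stem and progenitor cells are known to need. Its control values were 12.98, 13.04 and 13.06. The Dnmt3b-KO values were 13.09, 13.31 and 14.24, so that all 3 lay above every control, replicates 1 and 2 narrowly and replicate 3 by 1.21 over the control mean. The difference was 0.52 ± 0.30 over 6 arrays (SE; 95% interval -0.21 to 1.25; limma, adjusted p = 0.83) and 0.17 ± 0.08 without replicate 3 (-0.02 to 0.37; adjusted p = 0.375). Neither passed.

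Among the BH3-only genes, Pmaip1, a p53 target whose product NOXA binds MCL1 with preference, had the greatest difference without replicate 3. It lies on chromosome 18. Its values were 9.18, 9.29 and 9.26 in control and 9.82, 9.87 and 8.91 on the 3 Dnmt3b-KO arrays in order. Replicates 1 and 2 lay above every control and replicate 3 below every control, so the 3 Dnmt3b-KO arrays do not share a direction for this gene. Over 6 arrays the difference was 0.29 ± 0.27 (SE; 95% interval -0.37 to 0.95; limma, adjusted p = 0.833). Without replicate 3 it was 0.60, with an interval of 0.46 to 0.75 (adjusted p = 0.0164). Leaving out 1 more array kept the difference between 0.57 and 0.63. The call ended without control replicate 1 (adjusted p = 0.0764), control replicate 3 (0.0558), Dnmt3b-KO replicate 1 (0.131) or replicate 2 (0.111), and held without control replicate 2 (0.0343).

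Bcl2l11 encodes BIM, a BH3-only protein that binds all the guardians and is known as a main trigger of death after cytokine withdrawal in blood cells. Its values were 6.67, 6.68 and 6.66 in control and 6.97, 6.95 and 6.96 in Dnmt3b-KO. The groups did not overlap, the spread within each was 0.01 (SD, n = 3), and replicate 3 differed from the mean of replicates 1 and 2 by -0.01. The difference was 0.29 ± 0.05 (SE), with an interval of 0.17 to 0.41 over 6 arrays and 0.16 to 0.41 without replicate 3. It missed the threshold in both (limma, adjusted p = 0.554 and 0.0593). limma draws the spread of each gene toward that of all genes, which makes this error larger than the spread of the gene itself.

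Of the other BH3-only genes, none passed. Bbc3, which encodes the p53 target PUMA, measured 4.98, 4.97 and 5.20 in control and 4.96, 5.04 and 5.75 in Dnmt3b-KO. The first and second of these lay among the controls or just below and the third above them, with a difference of 0.20 ± 0.22 over 6 arrays (SE; adjusted p = 0.846) and -0.05 ± 0.09 without replicate 3 (adjusted p = 0.875). Bid, whose product is cut by caspase 8 and links death receptors to mitochondria, measured 9.02, 9.05 and 9.09 in control and 9.09, 9.0 and 9.14 in Dnmt3b-KO. Its groups overlapped, and its difference was 0.02 over 6 arrays (95% interval -0.13 to 0.18) and -0.01 without replicate 3 (-0.15 to 0.13). Bmf, a BH3-only gene tied to the cytoskeleton, measured 4.61 to 4.68 in control and 4.68 to 4.77 in Dnmt3b-KO, with a difference of 0.07 over 6 arrays (95% interval -0.07 to 0.22) and 0.04 without replicate 3 (-0.09 to 0.18). Bmf lay below the median gene of each array (4.75 to 4.85) on all 6 arrays, and below the brightest of the 23 array background rows on all 6. Bbc3 lay above the median gene on all 6 arrays but above every background row on 3. A lack of difference in these 2 genes is thus limited by their dim signal.

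Bak1, the effector measured here, encodes BAK, which sits in the outer mitochondrial membrane and forms pores when freed from MCL1 and BCL-XL. It measured 11.20, 11.05 and 11.19 on the control arrays and 10.73, 10.86 and 10.13 on the Dnmt3b-KO arrays. All Dnmt3b-KO arrays lay below all controls, replicate 3 lowest. The difference was -0.57 ± 0.20 over 6 arrays (SE; 95% interval -1.06 to -0.09; limma, adjusted p = 0.734) and -0.35 ± 0.07 without replicate 3 (-0.53 to -0.17; adjusted p = 0.0895). Neither passed.

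**Figure D2:**
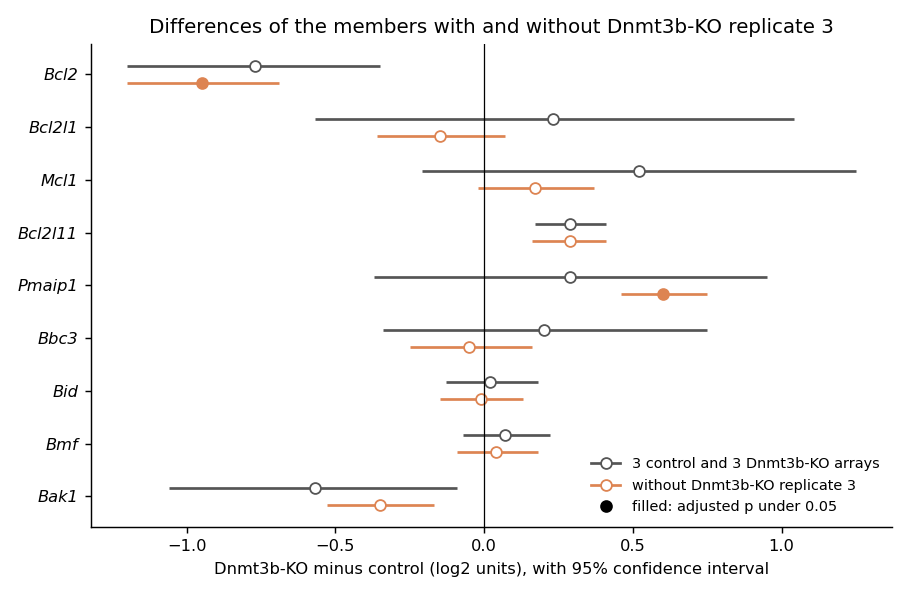
Difference of each member, Dnmt3b-KO minus control in log2 units, with its 95% confidence interval from limma, over all 6 arrays in grey and without Dnmt3b-KO replicate 3 in orange; filled points passed an adjusted p under 0.05. Bcl2 at -0.95 and Pmaip1 at 0.60 are the filled points, both without replicate 3, and Bcl2l11 is at 0.29 in both.

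The groups did not overlap over 6 arrays for 4 of the 9 members, Mcl1 and Bcl2l11 on the higher side and Bcl2 and Bak1 on the lower, against 14.9% of all genes (6.68% higher and 8.21% lower). Without replicate 3 they did not overlap for 6 of 9, 3 higher and 3 lower, against 32.5% of all genes. On all Dnmt3b-KO arrays the guardian Bcl2 and the effector Bak1 were lower, and the guardian Mcl1 and the BH3-only gene Bcl2l11 higher. Without replicate 3, Bcl2l1 joined the lower side and Pmaip1 the higher, while Bbc3, Bid and Bmf overlapped in both comparisons.

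Dnmt3b-KO replicate 3 differed from the mean of replicates 1 and 2 by more than 1 log2 unit for 2 members, Bcl2l1 at 1.14 and Mcl1 at 1.04, against 6.97% of all genes. Pmaip1 at -0.94, Bbc3 at 0.74, Bak1 at -0.66 and Bcl2 at 0.51 came next, while Bid at 0.10, Bmf at 0.09 and Bcl2l11 at -0.01 lay close. By contrast, replicates 1 and 2 differed from each other by at most 0.22 for any member. On replicate 3 all 9 members lay outside the range of the controls, 6 above and 3 below, as did 75.4% of all genes. These differences moved with the macrophage markers, whose summed level on that array was 107.7 against 66.4 to 68.0 on the other 5, and with the lower Kit, Meis1 and Csf3r. The part of those markers in the values was not tested.

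**Figure D3:**
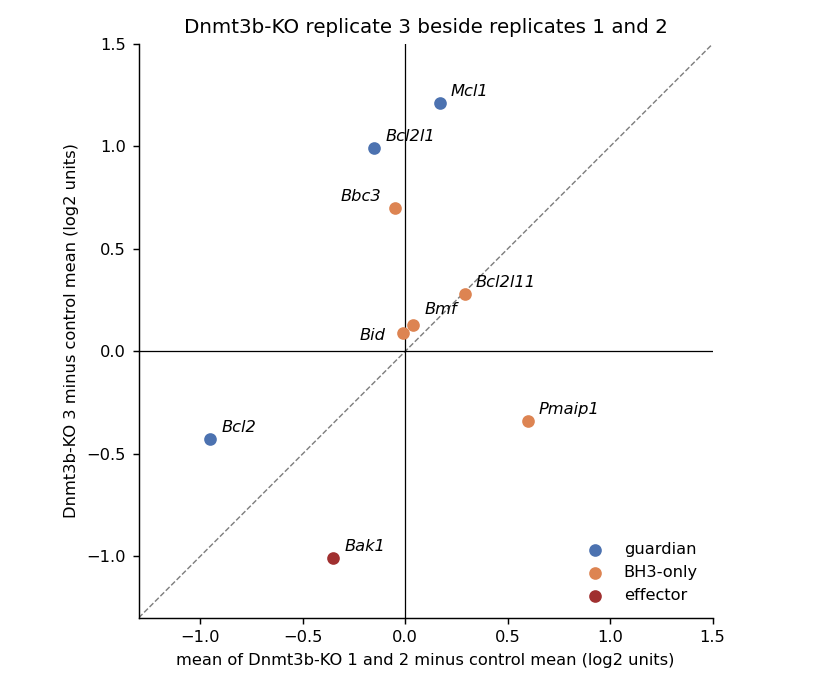
Difference from the control mean in log2 units for each member, with the mean of Dnmt3b-KO replicates 1 and 2 on the horizontal axis, replicate 3 on the vertical axis, colours for the role and a dashed line where both are equal. Bcl2l11 lies on the line at 0.29 and 0.28, Mcl1 and Bcl2l1 lie far above it at 1.21 and 0.99, and Pmaip1 at 0.60 and -0.34 is the called member with opposite signs.

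The rest of the pathway was read from lists of genes. Of 13 other BCL2 family genes measured, 0 passed in either comparison. The A1 genes Bcl2a1a, Bcl2a1c and Bcl2a1d, copies of a guardian gene of myeloid and lymphoid cells, were the members of that list with the largest differences. The copy Bcl2a1b was not analysed here. Bcl2a1a measured 5.17, 5.16 and 5.39 in control and 5.86, 5.53 and 8.78 in Dnmt3b-KO, with a difference of 0.45 ± 0.12 without replicate 3 (SE; limma, adjusted p = 0.148). Bcl2a1d measured 5.52, 5.16 and 5.24 in control and 5.85, 5.73 and 7.83 in Dnmt3b-KO, with a difference of 0.49 ± 0.11 (adjusted p = 0.112). For all 3 A1 genes replicate 3 stood far above the other arrays, by 2.04 to 3.09 over replicates 1 and 2, beside the macrophage markers named above, whose part was not tested. On control replicate 2 all 3 lay below the brightest background row of that array (5.62), so their differences without replicate 3 rest on dim signal. The A1 genes are near-identical copies, and whether their rows can be told apart by the probes is uncertain. The remaining 10 genes of that list, among them Bcl2l2, Bok, Bad, Bik and Hrk, had differences between -0.18 and 0.06 without replicate 3. Several were dim. Bcl2l10 and Bcl2l15 lay below the median gene on every array. Bik lay below the brightest background row on every array, and Bok, Hrk and Bcl2l14 did on some. A lack of difference in these genes is limited by their signal.

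Downstream of the mitochondrion, 0 of 5 apoptosome and caspase genes passed. Cycs, which encodes cytochrome c, measured 14.17, 14.47 and 14.28 in control and 14.06, 14.06 and 13.50 in Dnmt3b-KO, a difference of -0.24 ± 0.09 (SE) without replicate 3 (limma, adjusted p = 0.29). Casp9, the initiator caspase that the apoptosome activates, differed by -0.12 ± 0.06 (adjusted p = 0.401). For both genes all Dnmt3b-KO arrays lay below all controls. Of 10 inhibitor of apoptosis genes and their antagonists, 0 passed. Birc2 and Birc3, which encode the ubiquitin ligases cIAP1 and cIAP2, differed by 0.38 ± 0.08 (adjusted p = 0.0932) and 0.32 ± 0.07 (0.0877) without replicate 3. On replicate 3 Birc3 was higher still at 9.82, whereas Birc2 at 8.62 lay below every control. The list had a median of 0.20 without replicate 3 and -0.02 over 6 arrays, against -0.01 and -0.004 over all genes. Without replicate 3 its genes ran from -0.38 to 0.38. Naip2, Naip5 and Naip6, related genes singled out after their values were seen, were at 0.22, 0.24 and 0.27 and weigh on that median.

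Of 7 genes of the death receptor arm, 0 passed. Tnfrsf10b, the mouse TRAIL receptor, measured 6.27, 6.20 and 6.23 in control and 5.82, 5.93 and 6.41 in Dnmt3b-KO, a difference of -0.36 ± 0.06 (SE) without replicate 3 (limma, adjusted p = 0.0548). Replicate 3 lay above the controls for this gene. Cflar, which encodes the caspase 8 inhibitor FLIP, differed by -0.27 ± 0.07 (adjusted p = 0.118) and was lower on all 3 Dnmt3b-KO arrays. The median of that list was -0.14 without replicate 3.

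Of 9 mitochondrial partners, 1 passed without replicate 3 and 0 over 6 arrays. It was the 1 call among the 61 genes of the 6 lists, a share close to the 1.69% of all genes, and so no result about the lists. Bnip3l, which encodes NIX, a mitophagy receptor related to the BH3-only proteins, measured 10.13, 10.03 and 10.07 in control. It was 10.57 and 10.50 on Dnmt3b-KO replicates 1 and 2, and rose by 0.46 ± 0.06 (SE; limma, adjusted p = 0.0315). On replicate 3 it measured 10.03, within the controls. Its call ended when any 1 more array was left out, at adjusted p of 0.102, 0.0713 and 0.0893 without control replicates 1, 2 and 3, and 0.20 and 0.128 without Dnmt3b-KO replicates 1 and 2. Of 17 measured genes that regulate transcription, turnover or docking of BCL2 family proteins, 0 passed. Stat5b, a signal transducer of cytokine receptors, differed by 0.23 ± 0.06 (adjusted p = 0.14) and Ppp2r5c, a phosphatase subunit, by 0.18 ± 0.07 (0.28), and both lay below every control on replicate 3. Ddit3, which encodes the stress factor CHOP and was singled out after its values were seen, measured 7.94 and 8.22 on Dnmt3b-KO replicates 1 and 2, near the controls of 7.92 to 8.13, and 10.45 on replicate 3.

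**Figure D4:**
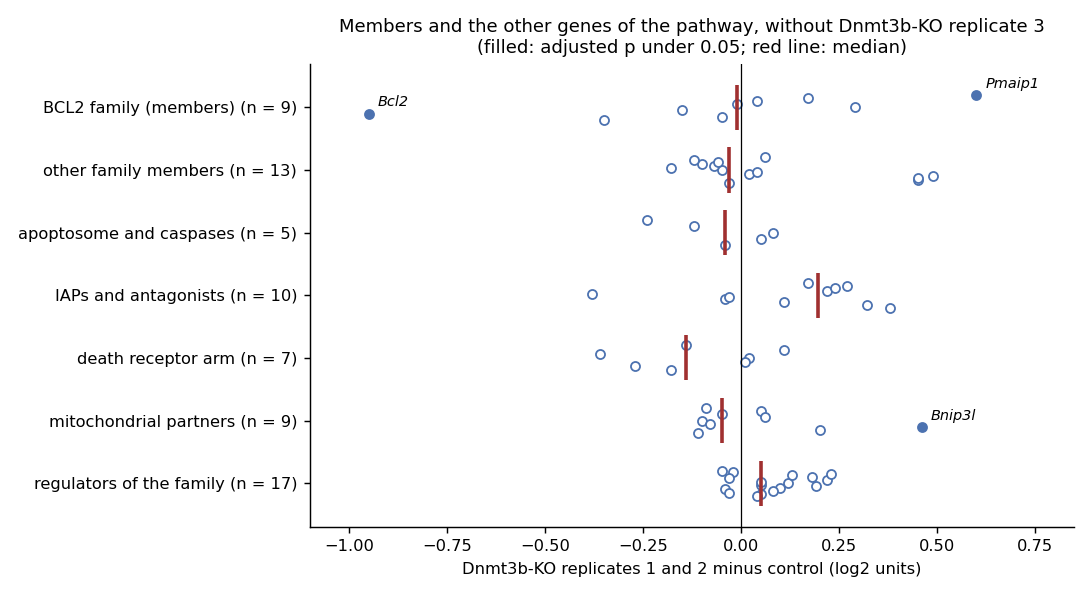
Difference between Dnmt3b-KO replicates 1 and 2 and control in log2 units, 1 point per gene, for the 9 members and 6 lists of other apoptosis genes, with the median of each list as a red line; filled points passed an adjusted p under 0.05. Bcl2 at -0.95, Pmaip1 at 0.60 and Bnip3l at 0.46 are the filled points.

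The genes whose values over the 6 arrays ran most like those of Bcl2 and Pmaip1 were found by the Euclidean distance between log2 values, each gene centred on its own mean. For Bcl2 they were Kif21a at a distance of 0.25, Fdx1 at 0.28, and Hsph1 and Fkbp4 at 0.42 each. Kif21a, a kinesin gene, measured 5.92, 6.09 and 5.96 in control and 5.09, 5.19 and 5.81 in Dnmt3b-KO. Hsph1, a heat shock chaperone gene, measured 10.20, 10.52 and 10.05 in control and 9.03, 9.37 and 10.13 in Dnmt3b-KO. Both follow Bcl2 in being lowest on Dnmt3b-KO replicates 1 and 2 and highest on control replicate 2. For Pmaip1 the nearest were Mctp1 and Lcorl at 0.13, and Sorl1 and the pseudogene Hmga2-ps1 at 0.15. Sorl1, a sorting receptor gene, measured 12.32, 12.31 and 12.43 in control and 12.88, 12.86 and 11.97 in Dnmt3b-KO, with the same order of control, replicates 1 and 2, and replicate 3. These are likenesses over 6 arrays, with no test.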

How the data were processed

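RNA from 6 sorted leukaemia samples was measured on Affymetrix mouse arrays. The authors' deposited values are on a log2 scale after RMA, per the submitters' processing notes, which give no version. Values reach 19.59, above the range of a 16-bit scanner, so a further unstated step changed the scale, and differences are not converted to folds. Array rows were named through the platform annotation, which can be old: 30604 of 72688 rows had exactly 1 symbol, 2146 had several and were not named, and 827 symbols were brought up to date by gene identifier. Each gene was taken from its brightest row (30142 genes), and each member had 1 row. Groups were compared with limma 3.58.1 under R 4.3.3 (lmFit, eBayes, two-sided, Benjamini-Hochberg over all genes, threshold 0.05), checked on simulated data. Members, lists, tests and named genes were chosen with earlier results of these data known. Named genes are the members, Dnmt3b, list genes past the threshold or else the 2 with the smallest p per list without Dnmt3b-KO replicate 3, and the 4 nearest genes to Bcl2 and to Pmaip1, clone names passed over. Precision is limited by the number of arrays. The alternatives were array weights, a robust fit with a variance trend, the replicate number as a block, centred or again quantile-normalized arrays, bright genes only, averaged rows, a threshold of 0.1 and each array left out. Counting identical values once and a test without empirical Bayes were chosen after seeing the data.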

Additional observations from a re-analysis of the deposited data

How the results depend on the processing

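Over 6 arrays, the counts of 0 genes and 0 members became 103 genes and 1 member, Bcl2, with array weights, which gave Dnmt3b-KO replicate 3 a weight of 0.11. Leaving out each array gave 0 to 509 genes and 0 to 2 members. Without Dnmt3b-KO replicate 3, the 509 genes and 2 members became 1003 and 4 among genes above the median level, where Bcl2l11 and Bak1 pass as well. Fewer genes are tested there, so the share of genes called is also larger than over all genes. Over all genes the 509 and 2 became 1148 and 4 at an adjusted p under 0.1, and 0 and 0 without empirical Bayes. With identical values counted once the 509 genes became 394. Leaving out 1 more array gave 13 to 262 genes and 0 to 2 members, and a Dnmt3b-KO array left alone is then taken to vary as much as the controls do. With the replicate number as a block they became 96 and 0, with adjusted p of 0.0505 for Bcl2, 0.0763 for Pmaip1 and 0.10 for Bnip3l (limma), and over 6 arrays 0 and 0. The deviations of samples with the same number correlated at 0.13, 0.03 and 0.11, and 5 of 6 samples correlated best with their own number, a hint from the data and not the design. The samples are taken to share only a number.

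Differences of 3 members that passed in neither comparison turned sign: Bcl2l1 (0.233), Bbc3 (0.201) and Bid (0.025) over 6 arrays, and Bbc3 (-0.047) and Bid (-0.008) without replicate 3. Over 6 arrays with array weights Bcl2l1 was at -0.113, Bbc3 at -0.012 and Bid at -0.015, and leaving out each array gave -0.147 to 0.435, -0.047 to 0.345 and -0.008 to 0.063. Without Dnmt3b-KO replicate 3 the replicate block gave 0.026 for Bbc3 and 0.009 for Bid, centring gave 0.005 for Bid, and leaving out 1 more array gave -0.088 to 0.026 and -0.051 to 0.036. The cause was not tested. No other member turned sign under these alternatives. The dim signal of Bmf and Bbc3 limits what can be said of them.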
